A study of Mus musculus with 2 samples.

Results

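Mural cells, the pericytes and smooth muscle cells that wrap small vessels, were followed in single-cell RNA sequencing of J558 tumours. J558 is a mouse plasmacytoma line, grown here as allografts in female BALB/c mice. One group received the vehicle, 0.5% methylcellulose, and the other TAK-931, an inhibitor of the replication kinase CDC7, at 60 mg/kg, both by mouth, once daily (QD) up to day 6. Both groups carried the same tumour line, which the labels call a B lymphocyte, and the labels name no engineered allele. Each group gave 1 sample and 1 library, so no test between treatments was possible and every interval below covers counting error only. Mural barcodes were chosen by 5 or more Rgs5 UMIs (unique molecular identifiers, the tags that count single transcripts) and 2 or more UMIs of Acta2, Notch3, Cspg4 and Higd1b together. They were also selected on at most 1 UMI of Cdh5, of Csf1r and of Cd3d, Cd3e and Cd3g together, and on fewer than 3 UMIs of the tumour gene Trap1a. Only barcodes in which more than 2000 genes were seen and mitochondrial UMIs stayed below 15% were considered. The rule took 23 of 3441 such barcodes in the vehicle library and 32 of 3488 in the TAK-931 library, 55 of 6929 in all.

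Pericytes sit in the basement membrane of capillaries, share it with the endothelium and are held there by PDGF-B signalling through their receptor Pdgfrb, while Notch3 maintains their identity. Smooth muscle cells surround larger vessels and carry a contractile apparatus of smooth muscle actin, myosin and actin-binding proteins. Both can lower these contractile genes and raise matrix or chemokine genes in injured tissue, and tumour vessels often carry loosely attached mural cells that are intermediate between the classes.

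The mural barcodes were deep. The vehicle ones held 503304 UMIs in all, with 11292 to 35912 per barcode (median 21762), and the TAK-931 ones 770601 UMIs, with 9697 to 118942 (median 19860). A single TAK-931 barcode held 15.4% of that library's mural UMIs, and the next deepest had 45728 UMIs. Median genes per barcode were 4274 and 4250, and median mitochondrial shares 3.38% and 4.65%. The libraries shared 8 barcode sequences, and 0 mural barcodes were among them. Doublets were not called, and the deepest barcode can be a single large cell or several cells, which was not tested.

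The label was checked on genes the rule did not read. Pdgfrb, the receptor for PDGF-B, had UMIs in all 23 vehicle and all 32 TAK-931 mural barcodes, and Tagln, an actin-binding protein of smooth muscle, in 23 of 23 and 30 of 32. Both genes were also found in barcodes that failed only the Rgs5 limit, as given below. Cldn5 and Tek, which define endothelium, were at 0 UMIs in both sums, as were the fibroblast genes Lum and Pdgfra and the T cell genes Lck and Trbc1. All 4 epithelial markers were at 0 in both libraries, as were Myod1, Myf5 and Pax7 of skeletal muscle and Sox10 of Schwann cells. Other members of these lists were present. Pecam1 was seen in 2 of 23 and 15 of 32 barcodes, Plvap in 7 and 13 and Emcn in 2 and 6, and the 9 endothelial genes outside the rule summed to 890 CPM (UMIs of a gene per 1000000 UMIs of the summed barcodes) with vehicle, 170 to 1782 per barcode, and 754 CPM with TAK-931, 74.5 to 1870, most of it Flt1. Dpt was seen in 0 of 23 and 11 of 32 barcodes and Clec3b in 0 and 4, and the 9 fibroblast genes summed to 989 CPM (88.6 to 2465) and 605 CPM (0 to 2511), most of it Serpinf1. Dcn, the leading fibroblast gene, had 0 vehicle UMIs and 18 TAK-931 UMIs, in 5 barcodes. Of the T cell list, Trac was seen in 19 of 23 and 14 of 32 barcodes, Trbc2 in 1 and 5 and Nkg7 in 0 and 2, and its 8 genes summed to 205 and 64.9 CPM. Macrophage markers summed to 328 CPM in the vehicle sum, nearly all in 1 barcode with 51 Lyz2 UMIs, and to 629 CPM in the TAK-931 sum, where 1 barcode held 142 of 192 Lyz2 UMIs. They were seen in 4 of 23 and 31 of 32 barcodes, and Lyz2 alone in 2 of 23 and 26 of 32, or at equal depth in 28.1% of TAK-931 mural and 31% of TAK-931 tumour barcodes. Immunoglobulin transcripts of the tumour were found at like levels in mural and endothelial barcodes, Iglc1 at 697 and 176 CPM in the vehicle and TAK-931 mural sums and at 846 and 209 CPM in the endothelial sums. Leaving out the 2 barcodes with 20 or more Lyz2 UMIs moved no list median reported below outside its interval, and the chemokine, interferon-gamma-inducible and MHC class I medians were then 2.74, 3.57 and 1.90. The endothelial genes Flt1 and Esam were present in most mural barcodes, so that a stricter limit of under 5 UMIs of endothelial markers other than Cdh5 left 3 vehicle and 4 TAK-931 barcodes. In those 7 the medians of the smooth muscle, basement membrane, NF-kB and p53 lists changed sign, as did Acta2, Spp1, Ccl2, Cxcl1, Cdkn1a and Zbp1 and further genes named below. Further values from these few barcodes are given below as a description only.

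Of kept barcodes with 5 or more Rgs5 UMIs, 32 with vehicle and 72 with TAK-931, 7 and 26 failed the Cdh5 condition, 0 and 16 the Csf1r condition, 1 and 8 the CD3 condition, 2 and 1 the Trap1a condition and 0 and 3 that on the 4 summed genes, and some failed more than 1 of them. Among barcodes that met every other condition, 1 in each library lay just inside the Rgs5 limit, at 5 to 9 UMIs, and 1 vehicle and 2 TAK-931 barcodes lay just outside, at 1 to 4. A further 13 vehicle and 6 TAK-931 barcodes met every other condition at 0 Rgs5 UMIs, and these had Acta2 at 2560 and 4312 CPM and Dcn at 1047 and 2099 CPM. Pdgfrb had UMIs in 12 of these 13 vehicle and 2 of these 6 TAK-931 barcodes, and Tagln stood at 3137 and 5956 CPM. Pdgfrb and Tagln alone therefore did not set mural barcodes apart from these.

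Genes of the smooth muscle list led those that set mural barcodes apart from all other kept barcodes. The 20 genes with the highest fold over the other barcodes, taking for each the lower of its folds in the 2 libraries, were led by Actg2, Lmod1, Myh11, Wnt5a, Nexn, Myl9, Acta2 and Tagln. Gucy1a1, a subunit of the nitric oxide receptor, Pde3a, which degrades cyclic nucleotides, and Ednra, the endothelin A receptor, were also among them, as were Rgs4, Aoc3 and the retinoic acid hydroxylase Cyp26b1. This order describes the chosen barcodes and is no test. Myh11, the smooth muscle myosin heavy chain, stood at 383 CPM (331 to 442) in the vehicle library and 422 CPM (377 to 470) in the TAK-931 library, against 0 UMIs in the endothelial and fibroblast barcodes of both libraries. Other smooth muscle genes were found in fibroblast barcodes. The 15 outside the rule summed to 15772 CPM in mural and 8058 CPM in fibroblast barcodes with vehicle, and to 9621 and 945 CPM with TAK-931.

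Mural barcodes made up a small share of all kept barcodes in both tumours. The share was 0.668% (exact 95% interval 0.424 to 1) in the vehicle library and 0.917% (0.628 to 1.29) after TAK-931. The difference came to 0.249 percentage points (-0.177 to 0.685), and with barcodes thinned to 8000 UMIs and limits of 2 Rgs5 UMIs and 1 UMI of the summed genes it was 0.56 (0.0783 to 1.07). The denominators were unlike, since 2956 kept vehicle barcodes and 116 kept TAK-931 barcodes carried 10 or more Trap1a UMIs. Among kept barcodes without the tumour mark the mural share was 5.49% of 419 and 0.951% of 3364, a difference of -4.54 points (-7.17 to -2.69). Set against endothelium alone, mural barcodes were 22.8% of 101 mural and endothelial barcodes with vehicle and 15.5% of 207 with TAK-931, which differed by -7.31 points (-17.4 to 1.69), or by -9.52 (-19.3 to -0.951) with over 1000 genes required and -3.31 (-14.3 to 6.93) with a mitochondrial limit of 10%. Against fibroblasts they were 63.9% and 62.7%. These are shares of recovered barcodes, not of cells in the tumour.

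Smooth muscle genes had a lower median than the genes tested as a whole, and unequal values. Of 6291 genes with 20 or more UMIs over both mural sums, 14.3% were at least 2-fold higher in the TAK-931 sum and 5.64% at least 2-fold lower, 901 and 355 genes. With median-ratio scaling, which raised every log2 ratio by 0.15, these became 1128 and 251. Of 15 smooth muscle genes outside the rule, 0 were 2-fold higher and 5 were 2-fold lower, with a median log2 ratio of -0.52 against 0.11 over all genes tested. Acta2, smooth muscle actin, which the rule read as 1 of 4 summed genes and which is given as a description, stood at 7886 CPM (7642 to 8135) in the vehicle library and 2495 CPM (2385 to 2610) in the TAK-931 library, a log2 ratio of -1.66 (95% interval -1.74 to -1.58). Per barcode, the vehicle library had a lowest of 283, a median of 8752 and a highest of 16868 CPM, and the TAK-931 library a lowest of 0, a median of 1079 and a highest of 20572 CPM. The ranges overlapped, with 30 of 32 TAK-931 barcodes under the vehicle median, 5 of them at 0, and 1 above the highest vehicle barcode. Acta2 reached 100 UMIs in 16 of 23 vehicle and 6 of 32 TAK-931 barcodes.

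**Figure D1:**
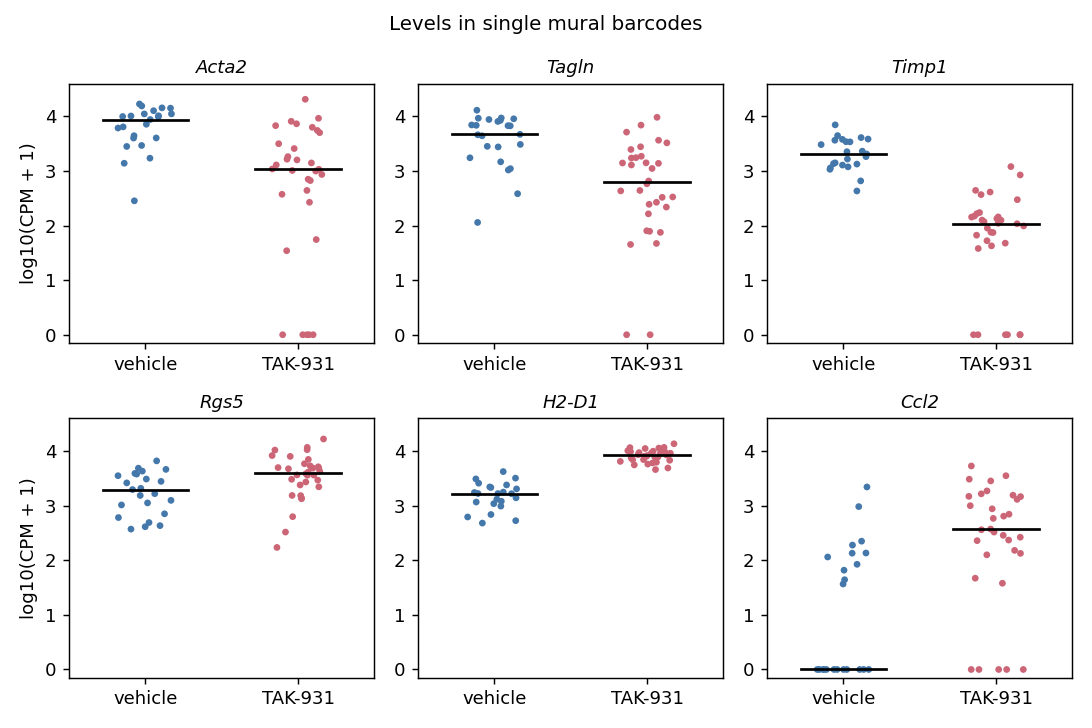
Levels of 6 genes in single mural barcodes, as log10(CPM + 1), for 23 vehicle (blue) and 32 TAK-931 (red) barcodes; horizontal bars mark medians and sideways scatter carries no value. Acta2, Tagln and Timp1 lie lower and H2-D1 and Ccl2 higher in the TAK-931 barcodes, and H2-D1 does not overlap between the libraries.

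Other thin filament genes had values on the same side. Tagln stood at 5084 CPM (4889 to 5285) in the vehicle library and 2213 CPM (2109 to 2320) in the TAK-931 library (log2 ratio -1.20, 95% interval -1.29 to -1.11), with 29 of 32 TAK-931 barcodes under the vehicle median. The deepest TAK-931 barcode held 48.2% of the Tagln UMIs of its library, and without the deepest barcode of each library the ratio was -1.95. Actg2, the enteric form of smooth muscle actin, had 799 and 178 CPM (log2 ratio -2.17, 95% interval -2.46 to -1.88) and was detected in 17 of 23 and 14 of 32 barcodes. Cnn1, which codes for calponin, had 135 and 44.1 CPM (log2 ratio -1.61, 95% interval -2.25 to -1.0), and Lmod1, an actin nucleator of smooth muscle, 270 and 96 CPM (log2 ratio -1.49, 95% interval -1.92 to -1.07). Des, the intermediate filament desmin, had 767 and 378 CPM (log2 ratio -1.02, 95% interval -1.25 to -0.80). The tropomyosins were lower by less than 2-fold, with log2 ratios of -0.72 for Tpm1 and -0.76 for Tpm2, although the Tpm2 median per barcode was 1470 and 420 CPM.

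Some genes of the contractile apparatus had sums closer to each other or on the other side. Myh11 had a log2 ratio of 0.14 (95% interval -0.12 to 0.40), and Mylk, the kinase that starts myosin contraction, 0.43 (95% interval 0.23 to 0.62). Synpo2, an actin bundler, had 0.65 (95% interval 0.26 to 1.04), and Myl9, the regulatory light chain, -0.27 (95% interval -0.47 to -0.06). The Myl9 median per barcode was 610 CPM with vehicle and 239 CPM with TAK-931, and 4934 CPM was its highest TAK-931 barcode. The regulators were sparse. Myocd, the coactivator that switches on smooth muscle genes, had 8 and 17 UMIs, and Srf, its partner on CArG boxes, 14 and 15 UMIs. Thinned to 5000 UMIs per barcode, which left out none, Myh11 was seen in 56.5% (34.5 to 76.8) of vehicle and 50% (31.9 to 68.1) of TAK-931 mural barcodes, against 0.101% and 0.862% of tumour barcodes, which should lack it.

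A CArG box in the 250 bases before the start was found for Myl9 and Srf among the 12 smooth muscle genes with a RefSeq promoter (16.7%), against 1.62% of 27025 genes. Acta2 had an entry without a match, which says only that these letters are not in that window. The Myl9 window is shown because it holds the box in a gene of the contractile apparatus, with the box in capitals (RefSeq, GRCm38.p6).
Myl9, chr2:156775214-156775463, + strand: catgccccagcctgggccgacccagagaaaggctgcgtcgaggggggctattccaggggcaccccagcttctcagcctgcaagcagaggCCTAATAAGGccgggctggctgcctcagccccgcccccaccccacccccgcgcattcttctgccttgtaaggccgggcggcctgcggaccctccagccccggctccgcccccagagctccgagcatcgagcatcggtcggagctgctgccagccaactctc

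Pericyte genes lay on the other side. Of 12 pericyte genes outside the rule, 6 were 2-fold higher and 0 were 2-fold lower in the TAK-931 sum, with a median log2 ratio of 0.79. These 12 summed to 1866 CPM in mural and 1529 CPM in endothelial barcodes with vehicle, and to 2444 and 187 CPM with TAK-931. Vtn, vitronectin, had 19.9 and 94.7 CPM (log2 ratio 2.25, 95% interval 1.29 to 3.37) and was detected in 6 of 23 and 23 of 32 barcodes. Gucy1a1 and Gucy1b1, the subunits of the nitric oxide receptor, had log2 ratios of 1.23 (95% interval 0.81 to 1.68) and 1.01 (95% interval 0.47 to 1.58). Heyl, a Notch target, had 1.24 (95% interval 0.43 to 2.14), and Mcam, an adhesion molecule of pericytes and endothelium, 1.09 (95% interval 0.66 to 1.53). Anpep, the aminopeptidase CD13, rested on 4 and 21 UMIs.

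Channel and metabolic genes of pericytes were closer in level. Kcnj8, the pore of the vascular ATP-sensitive potassium channel, had 131 and 195 CPM (log2 ratio 0.57, 95% interval 0.14 to 1.01) and was detected in 10 of 23 and 26 of 32 barcodes. Thinned to equal depth, it was seen in 39.1% (19.7 to 61.5) and 59.4% (40.6 to 76.3) of mural barcodes, intervals that overlap. Its partner subunit Abcc9 had a ratio of 0.08 (95% interval -0.25 to 0.42), Ndufa4l2 -0.15 (95% interval -0.38 to 0.08) and Cox4i2 -0.24 (95% interval -0.65 to 0.18). Pdgfrb had 364 and 446 CPM (log2 ratio 0.30, 95% interval 0.03 to 0.56). Rgs5, the signalling brake on which the barcodes were selected, had 2178 and 4019 CPM and a ratio of 0.88, given as a description. Its TAK-931 barcodes had a lowest of 171, a median of 3997 and a highest of 16690 CPM, against a lowest of 372, a median of 1976 and a highest of 6629 CPM in the vehicle library.

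Contractile and pericyte genes were found together in many of the barcodes. Myh11 and Kcnj8 were detected together in 8 vehicle and 19 TAK-931 barcodes, Myh11 alone in 11 and 4, Kcnj8 alone in 2 and 7 and neither in 2 and 2. Across barcodes, which share a library and differ in depth, Spearman's rho of Acta2 with Tagln was 0.82 over 23 vehicle and 0.76 over 32 TAK-931 barcodes. With Kcnj8 it was -0.68 with vehicle and -0.25 with TAK-931. The summed smooth muscle genes and the summed pericyte genes outside the rule had a rho of -0.34 with vehicle and 0.51 with TAK-931, the opposite sign.

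**Figure D2:**
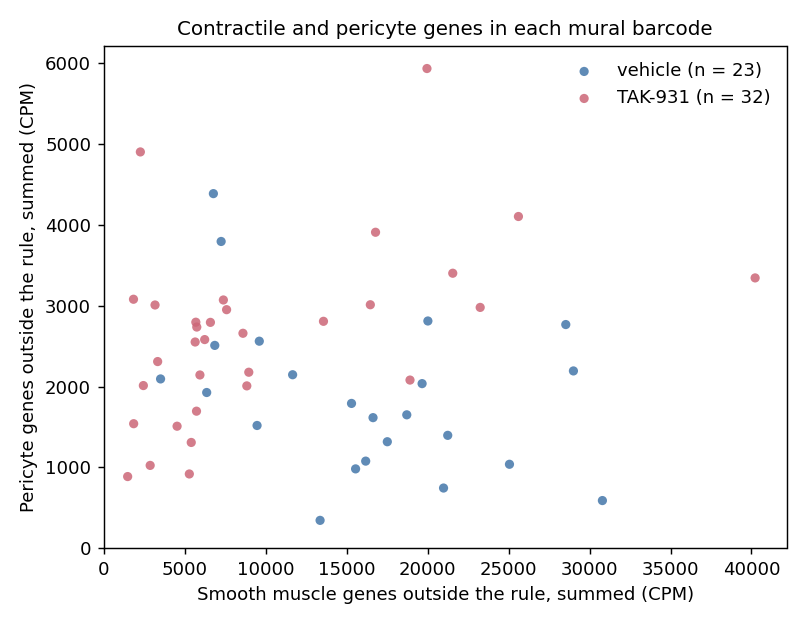
Each point is 1 mural barcode, placed by the summed CPM of 15 smooth muscle genes (horizontal) and of 12 pericyte genes (vertical) outside the rule, blue for 23 vehicle and red for 32 TAK-931 barcodes. Most TAK-931 barcodes lie at low smooth muscle sums.

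Several matrix genes depended on the deepest barcodes. Of 21 genes of fibrillar collagen and remodelling, 1 was 2-fold higher and 2 were 2-fold lower, with a median of -0.01, which was -0.58 without the deepest barcode of each library. That TAK-931 barcode held 2997 of 5316 Col1a1 UMIs and 1167 of 2484 Col3a1 UMIs, with 4 Acta2, 822 Tagln, 42 Pdgfrb and 0 Dcn and Pdgfra UMIs. Col1a1, a chain of type I collagen, had 5452 and 6899 CPM and a log2 ratio of 0.34, or -0.66 without the deepest barcode of each library. Col1a2 had 0.42 and -0.41, and Col3a1 0.89 and 0.15. The direction for the type I collagens thus turned when the deepest barcode of each library was left out. Per barcode, Col1a1 had a lowest of 354, a median of 4136 and a highest of 18006 CPM in the vehicle library, and a lowest of 0, a median of 1376 and a highest of 28732 CPM in the TAK-931 library.

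The secreted proteins Timp1 and Spp1 were lower with and without the deepest barcodes. Timp1, an inhibitor of matrix proteases, stood at 2333 CPM (2201 to 2470) in the vehicle library and 319 CPM (281 to 362) in the TAK-931 library (log2 ratio -2.87, 95% interval -3.07 to -2.67). Its vehicle barcodes had a lowest of 429, a median of 2042 and a highest of 6995 CPM and its TAK-931 barcodes a lowest of 0, a median of 108 and a highest of 1202 CPM. All 32 TAK-931 barcodes lay under the vehicle median and 29 under the lowest vehicle barcode, and the ratio was -3.93 without the deepest ones. Spp1, osteopontin, had 7022 and 655 CPM (log2 ratio -3.42, 95% interval -3.56 to -3.29), and 20 of 32 TAK-931 barcodes were at 0 against 4 of 23 vehicle ones. Fn1, fibronectin, had a log2 ratio of -0.95 (95% interval -1.06 to -0.84). Postn, periostin, was on the other side, with 95.4 and 418 CPM (log2 ratio 2.13, 95% interval 1.69 to 2.60).

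The basement membrane list stood near the background, with 2 of 12 tested genes 2-fold higher, 0 lower and a median of 0.13. Col4a1 and Col4a2, the main chains of type IV collagen, had ratios of -0.18 and -0.06. Col18a1, the source of endostatin, had 717 and 1234 CPM (log2 ratio 0.78, 95% interval 0.61 to 0.96). The laminin chain Lamb2 had 1.99 (95% interval 1.13 to 2.96), and Lama5 rested on 1 and 33 UMIs.

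Genes that signal between mural cells and endothelium stood near the background. Of 20 vessel signalling genes outside the rule, 3 were 2-fold higher and 1 was 2-fold lower, with a median of 0.25. Over all genes tested the shares were 14.3% and 5.64%. Among ligands, Pdgfa, a growth factor for mesenchyme, had a log2 ratio of 0.02 (95% interval -0.27 to 0.31), the vessel-loosening factor Angpt2 0.60 (95% interval 0.03 to 1.19) and the Notch ligand Jag1 0.50 (95% interval -0.04 to 1.05). Tgfb1, which drives smooth muscle differentiation, had 183 and 94.7 CPM (log2 ratio -0.95, 95% interval -1.41 to -0.49). Vegfa, the endothelial growth factor, rested on 4 and 41 UMIs, and at equal depth it was seen in 3.12% of TAK-931 mural and 7.76% of tumour barcodes. Among receptors, Ednra had 0.80 (95% interval 0.43 to 1.17) and the endothelin B receptor Ednrb -1.41 (95% interval -1.91 to -0.92), so the 2 endothelin receptors lay on opposite sides of 0, although 1 TAK-931 barcode held 62.5% of the Ednrb UMIs. Hes1, a general Notch target, had 0.20 (95% interval -0.10 to 0.50).

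**Figure D3:**
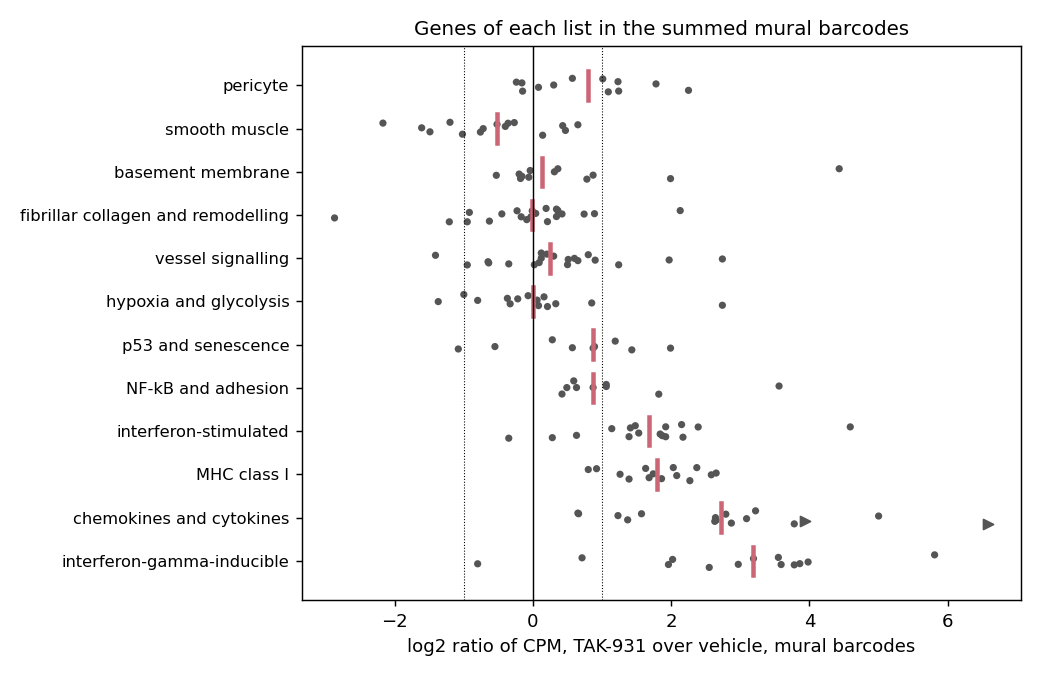
Each point is a gene of a list with 20 or more UMIs over both mural sums, placed by its log2 ratio of CPM, TAK-931 over vehicle. Arrows mark genes at 0 in 1 library, placed at the ratio given by a floor of 3 counts. Red bars are list medians, from -0.52 for smooth muscle to 3.19 for the interferon-gamma-inducible genes, and dotted lines mark 2-fold.

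Most chemokine genes were higher in the TAK-931 mural sum. Of 16 tested members of a list of 19 chemokines and cytokines, 14 were 2-fold higher, 0 were 2-fold lower and the median log2 ratio was 2.72. The 14 include Ccl5 and Ccl8, whose shares at equal depth were not above those in tumour barcodes, as given below. The 3 members under the minimum were Cx3cl1 with 5 and 2 UMIs, Il33 with 1 and 0 UMIs and Lif with 0 and 1 UMIs. Ccl2, which draws monocytes, stood at 155 CPM (123 to 193) in the vehicle library and 975 CPM (906 to 1047) in the TAK-931 library (log2 ratio 2.65, 95% interval 2.31 to 3.01). Its vehicle barcodes had a lowest of 0, a median of 0 and a highest of 2204 CPM and its TAK-931 barcodes a lowest of 0, a median of 367 and a highest of 5345 CPM. At least 10 Ccl2 UMIs were found in 2 of 23 vehicle and 16 of 32 TAK-931 barcodes. Cxcl10, which draws T cells through Cxcr3, had 0 and 439 UMIs, 95.6-fold higher if a floor of 3 counts is put over the vehicle sum, with 6.27 as the lower exact 95% limit of the log2 ratio. It was seen in 22 of 32 TAK-931 barcodes and in 0 of 23 vehicle ones.

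The neutrophil chemokine Cxcl1 had 821 and 2123 CPM (log2 ratio 1.37, 95% interval 1.21 to 1.53) and its relative Cxcl2 372 and 583 CPM (log2 ratio 0.65, 95% interval 0.40 to 0.90). The monocyte chemokine Ccl7 had 29.8 and 184 CPM (log2 ratio 2.63, 95% interval 1.86 to 3.50), and the eotaxin Ccl11 37.8 and 261 CPM (log2 ratio 2.79, 95% interval 2.11 to 3.55). Ccl8 rested on 1 and 49 UMIs. These genes differed in how many barcodes carried them. Cxcl9, another Cxcr3 ligand, had 99.3 and 923 CPM, but 1 TAK-931 barcode held 54% of its UMIs and 1 vehicle barcode 84%. Ccl19, which draws dendritic cells, had 0 and 70 UMIs, all in 8 TAK-931 barcodes. Il6 had 17.9 and 112 CPM (log2 ratio 2.64, 95% interval 1.65 to 3.82), Il34, a ligand of Csf1r, 3 and 39 UMIs, and Csf1 a ratio of 1.23 (95% interval 0.28 to 2.29). Il6 was detected in only 5 of 23 and 9 of 32 barcodes, and 1 TAK-931 barcode held 30 of its UMIs. Thinned to 5000 UMIs, it was seen in 8.7% (1.07 to 28) and 12.5% (3.51 to 29), intervals that overlap.

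Because free RNA can place such transcripts in any barcode, the tumour barcodes give a measure of it. Thinned to 5000 UMIs, Ccl2 was seen in 75% (56.6 to 88.5) of TAK-931 mural barcodes and in 2.59% of 116 TAK-931 tumour barcodes, and Cxcl10 in 56.2% (37.7 to 73.6) and 3.45%. Ccl8 was seen in 18.8% (7.21 to 36.4) and 27.6%, and Ccl5 in 12.5% (3.51 to 29) and 22.4%, so neither was above this background and their counts are not read as expression. The unthinned tumour shares of Ccl2 and Cxcl10 were 31.9% and 24.1%, at a median of 76777 UMIs against 19860 in the mural barcodes.

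Interferon-inducible genes had the highest list median. Interferon-gamma acts through its receptor on genes such as Irf1, the guanylate-binding Gbp proteins and the immunity-related GTPases. Of 13 tested members of a list of 14, 11 were 2-fold higher and 0 lower, with a median of 3.19. Irf1 had 23.8 and 375 CPM (log2 ratio 3.98, 95% interval 3.15 to 4.94), and 27 of 32 TAK-931 barcodes lay above the highest vehicle barcode. Irgm1 had 15.9 and 231 CPM (log2 ratio 3.86, 95% interval 2.85 to 5.10), Gbp2 69.5 and 271 CPM (log2 ratio 1.96, 95% interval 1.44 to 2.52) and Gbp7 35.8 and 209 CPM (log2 ratio 2.55, 95% interval 1.84 to 3.34). Iigp1 had 81.5 and 956 CPM (log2 ratio 3.55, 95% interval 3.10 to 4.04), and 1 vehicle barcode held 78% of its vehicle UMIs. Cd274, which codes for the checkpoint ligand PD-L1, had 1 and 86 UMIs (log2 ratio 5.81, 95% interval 3.30 to 11.13) and was seen in 1 of 23 and 16 of 32 barcodes. One TAK-931 barcode held 34 of the 86 UMIs. At equal depth Cd274 was seen in 37.5% (21.1 to 56.3) of TAK-931 mural and 18.1% (11.6 to 26.3) of TAK-931 tumour barcodes, intervals that overlap. The receptor gene Ifngr2 was counted in this list and was its lowest tested member, with a ratio of -0.80 (95% interval -1.48 to -0.12). Ifngr1, the other receptor gene, had a ratio of 0.71 (95% interval -0.30 to 1.81).

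The broader interferon-stimulated list had 13 of 16 tested members of 20 at 2-fold higher, 0 lower and a median of 1.69. Bst2, which tethers budding virus, had 161 and 609 CPM (log2 ratio 1.92, 95% interval 1.58 to 2.28). Isg15, a ubiquitin-like modifier, had 0.63 (95% interval 0.26 to 1.02), and 1 vehicle barcode held 49.4% of its vehicle UMIs. Zbp1, a nucleic acid sensor, had 1.53 (95% interval 0.80 to 2.33), but at equal depth it was seen in 21.9% of TAK-931 mural and 21.6% of TAK-931 tumour barcodes, so its count is not above that background. Rsad2, Ifit2 and Ifit3, genes that type I interferon induces strongly, fell under the minimum with 8 and 6 UMIs, 5 and 5 UMIs and 6 and 10 UMIs. All vehicle UMIs of Rsad2, and all those of Ifit3, lay in 1 barcode, against 4 and 6 TAK-931 barcodes with a UMI. These counts are thus not read as level between the libraries. Without the 2 barcodes of 20 or more Lyz2 UMIs, 1 in each library, the median of this list was 2.3.

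Most MHC class I genes were higher with TAK-931, and 2 of them, H2-D1 and H2-K1, did not overlap between the libraries. Of 14 MHC class I genes, 12 were 2-fold higher and 0 lower, with a median of 1.80. H2-D1, a classical class I heavy chain, stood at 1754 CPM (1641 to 1874) in the vehicle library and 8484 CPM (8280 to 8692) in the TAK-931 library (log2 ratio 2.27, 95% interval 2.17 to 2.38). The vehicle barcodes had a lowest of 480, a median of 1669 and a highest of 4220 CPM, and the TAK-931 barcodes a lowest of 4592, a median of 8402 and a highest of 13653 CPM. Every TAK-931 mural barcode was above every vehicle one for H2-D1 and for H2-K1, the other classical heavy chain (914 and 3741 CPM; log2 ratio 2.03, 95% interval 1.89 to 2.18). No other gene of the 6291 tested separated the barcodes in this way (0.0318% in all, 2 genes, and 0 in the opposite direction). B2m, the light chain, had 2213 and 7096 CPM (log2 ratio 1.68, 95% interval 1.59 to 1.77), with 31 of 32 TAK-931 barcodes above the highest vehicle one. Tap1, the peptide transporter, had 2.65 (95% interval 1.71 to 3.75), the immunoproteasome subunit Psmb8 1.63 (95% interval 1.26 to 2.02) and the non-classical H2-T23 2.58 (95% interval 2.17 to 3.01).

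The promoters of these genes are shown because the genes were high together. The ISRE core, GAAANNGAAA on either strand, the letters bound by interferon regulatory factors, was present in the 250 bases before the start of 7 of 12 interferon-gamma-inducible genes with a RefSeq promoter (58.3%), 7 of 15 interferon-stimulated genes (46.7%) and 3 of 12 MHC class I genes (25%), against 3.46% of 27025 genes. The GAS motif, TTCNNNGAA, which has the same pattern on both strands, was present in 5 of 12, 2 of 15 and 1 of 12, against 8.13% of all genes. Of the 13 chemokine and cytokine genes 2 held an ISRE core (15.4%), Ccl19 and Cxcl10, and 0 the GAS motif. None of the 11 pericyte and 1 of the 12 smooth muscle genes, Mylk, held an ISRE core. A match is a description of the letters and does not show that a factor was bound. Capitals mark the ISRE core, which in Irgm1 is a pair of overlapping copies, and in Irf1 the GAS motif (RefSeq, GRCm38.p6).
Cxcl10, chr5:92348890-92349139, - strand: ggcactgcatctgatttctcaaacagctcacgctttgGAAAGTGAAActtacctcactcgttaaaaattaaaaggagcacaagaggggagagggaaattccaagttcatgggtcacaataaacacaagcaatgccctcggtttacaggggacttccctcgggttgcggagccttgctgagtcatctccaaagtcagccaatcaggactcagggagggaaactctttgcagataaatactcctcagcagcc
Gbp2, chr3:142620413-142620662, + strand: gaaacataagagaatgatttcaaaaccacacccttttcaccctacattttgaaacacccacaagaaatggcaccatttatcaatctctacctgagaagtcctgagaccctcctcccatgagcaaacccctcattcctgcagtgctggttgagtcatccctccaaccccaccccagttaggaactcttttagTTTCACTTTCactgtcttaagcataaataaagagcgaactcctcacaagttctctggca
Irgm1, chr11:48871421-48871670, - strand: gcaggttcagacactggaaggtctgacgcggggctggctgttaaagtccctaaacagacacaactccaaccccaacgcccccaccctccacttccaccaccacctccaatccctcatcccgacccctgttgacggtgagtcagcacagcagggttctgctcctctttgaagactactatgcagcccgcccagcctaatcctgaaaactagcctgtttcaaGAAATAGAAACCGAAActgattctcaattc
B2m, chr2:122147437-122147686, + strand: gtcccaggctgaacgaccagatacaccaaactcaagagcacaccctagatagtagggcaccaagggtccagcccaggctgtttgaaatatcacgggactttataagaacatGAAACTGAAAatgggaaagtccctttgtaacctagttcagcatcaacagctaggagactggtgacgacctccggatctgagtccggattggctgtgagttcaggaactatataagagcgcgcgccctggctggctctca
Irf1, chr11:53769764-53770013, + strand: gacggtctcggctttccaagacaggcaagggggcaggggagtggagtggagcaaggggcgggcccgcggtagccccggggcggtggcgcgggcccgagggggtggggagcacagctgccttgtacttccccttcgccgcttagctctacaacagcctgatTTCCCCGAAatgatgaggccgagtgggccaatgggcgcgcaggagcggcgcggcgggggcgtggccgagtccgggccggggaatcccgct

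Among inflammatory and stress genes, the NF-kB and adhesion list had 4 of 9 tested members of 10 at 2-fold higher, 0 lower and a median of 0.87. Nfkbia, the inhibitor that NF-kB itself induces, had 707 and 1289 CPM (log2 ratio 0.87, 95% interval 0.69 to 1.04), and Icam1, a leukocyte adhesion molecule, 1.06 (95% interval 0.51 to 1.64). Vcam1, another adhesion molecule, rested on 2 and 36 UMIs. Immediate early and heat shock genes, which tissue dissociation also raises, had 6 of 14 at 2-fold higher, 0 lower and a median of 0.79. Their summed level was 9257 CPM in the vehicle and 16488 CPM in the TAK-931 mural sum, with Fos at 791 and 2155 CPM and Egr1 at 854 and 2402 CPM. The part of dissociation, and that of the macrophage transcripts given above, in the inflammatory lists was not tested.

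Cell cycle genes, the direct field of a CDC7 inhibitor, were mostly too sparse to compare. Cdc7 itself had 0 and 1 UMIs and its activator Dbf4 5 and 7 UMIs. Of 15 S phase genes 3 passed the minimum, and of 14 G2/M genes 0, with 14 and 36 G2/M UMIs in all. Pcna, the replication clamp, had a ratio of 0.28 (95% interval -0.35 to 0.92). Slbp, which binds histone mRNA, had 20 and 78 UMIs (log2 ratio 1.35, 95% interval 0.63 to 2.14) and was seen at equal depth in 17.4% (4.95 to 38.8) and 43.8% (26.4 to 62.3) of mural and 32.5% and 37.1% of tumour barcodes. Mki67, a mark of cycling cells, was seen in 0 of 23 vehicle barcodes, which allows a share of barcodes with a UMI of up to 14.8% by the exact interval and does not limit the share of cells that express it, and in 3 of 32 TAK-931 ones.

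Of 9 tested p53 and senescence genes of 16, 3 were 2-fold higher and 1 was 2-fold lower, with a median of 0.87. Cdkn1a, the cyclin kinase inhibitor p21, had 113 and 258 CPM (log2 ratio 1.19, 95% interval 0.76 to 1.64), Btg2, an antiproliferative p53 target seen at equal depth in 65.6% of TAK-931 mural and 87.1% of tumour barcodes, 1.43 (95% interval 1.00 to 1.89) and the stress cytokine Gdf15 1.99 (95% interval 1.13 to 2.96). Bax, the cell death effector, had -0.55 (95% interval -1.0 to -0.09) and Phlda3 0.28 (95% interval -0.26 to 0.85), so members of the p53 list lay on both sides of 0. Hypoxia and glycolysis genes had 1 of 14 at 2-fold higher, 2 lower and a median of -0.01. The deepest TAK-931 barcode held 62.7% of Gapdh and 55.4% of Pkm UMIs, and without the deepest barcodes this median was -0.84. Ldha, lactate dehydrogenase, then went from -1.0 to -1.53, and Gapdh turned from 0.21 to -0.97.

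The 10 highest ratios were taken among genes with 50 UMIs in whichever library had more of them, spread there over 5 or more barcodes, so that these genes had to differ and the other library could hold few or none of their UMIs. They included Irf1, Irgm1 and Iigp1 from the lists, Tgtp2 and Gbp6 of the interferon-inducible GTPases and Socs1, the brake on cytokine signalling (log2 ratio 3.03, 95% interval 2.24 to 3.93). The complement genes C1s1 (log2 ratio 3.37, 95% interval 2.40 to 4.52) and C2 were also there, C2 with 0 and 94 UMIs, 20.5-fold higher by the same floor, with a lower exact limit of 4.03 on the log2 scale. Rrad, a small GTPase, had 1 and 100 UMIs (log2 ratio 6.03, 95% interval 3.52 to 11.35), and Gja4, the connexin 37 of arterial junctions, 2 and 97 UMIs (log2 ratio 4.99, 95% interval 3.09 to 8.05). Gja4 was seen in 2 of 23 and 23 of 32 mural barcodes, and it is also an endothelial gene, at 65.5 and 132 CPM in the endothelial sums.

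The 10 lowest ratios included Spp1, Timp1 and Actg2, described above. Ccn2, connective tissue growth factor, had 1784 and 401 CPM (log2 ratio -2.15, 95% interval -2.34 to -1.97), and 12 of 32 TAK-931 barcodes were at 0 against 1 of 23 vehicle ones. Itga5, the fibronectin receptor subunit, had 205 and 45.4 CPM (log2 ratio -2.17, 95% interval -2.77 to -1.61), and Lmcd1 332 and 79.2 CPM (log2 ratio -2.07, 95% interval -2.52 to -1.64). Lgi1 had 54 and 1 UMIs and was seen in 18 of 23 and 1 of 32 barcodes. Cadm4, Hacd1 and Glipr2 had ratios of -2.36, -2.18 and -2.12.

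The same lists were read in 78 vehicle and 175 TAK-931 endothelial barcodes and in 13 and 19 fibroblast barcodes. The interferon-gamma-inducible and class I medians were above 1 in all 3 cell types. The interferon-gamma-inducible median was 3.19 in mural, 1.78 in endothelial and 2.82 in fibroblast barcodes, and that of MHC class I 1.80, 1.81 and 1.45. That of the interferon-stimulated list was 1.69, 0.68 and 2.07, with 4 of 20 genes 2-fold higher in endothelial barcodes. The chemokine medians were 2.72, 1.99 and 1.41. With 1 library per group the differences between cell types were not tested. Of all genes tested, 8.02% in endothelial and 12.1% in fibroblast barcodes were 2-fold higher, and 9.87% and 15.3% were 2-fold lower.

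Chemokines were spread differently over the 3 cell types. In the TAK-931 library Cxcl10 stood at 570 CPM (518 to 626) in mural, 1174 CPM in endothelial and 1083 CPM in fibroblast barcodes, and in the vehicle library at 0, 336 and 0 CPM. Ccl2 in the same order had 975, 265 and 1658 CPM with TAK-931. Ccl11 had 261 CPM in mural and 906 CPM in fibroblast barcodes and 0.34 CPM in endothelial ones. Ccl19 had 90.8 CPM in mural barcodes, 0 in endothelial and 2.05 CPM in fibroblast ones, and a mural barcode held 42.9% of it.

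The smooth muscle median was -0.52 in mural, -0.53 in endothelial (5 genes tested) and -3.94 in fibroblast barcodes (9 genes tested). Acta2 had 2281 and 14.4 CPM in the vehicle and TAK-931 fibroblast sums, Tagln 2844 and 65.7 CPM and Spp1 8200 and 148 CPM. Timp1 was lower in all 3, at 241 and 20.8 CPM in endothelial and 2139 and 499 CPM in fibroblast barcodes. Kcnj8 took another course. It stood at 550 and 6.8 CPM in the endothelial sums, and Abcc9 at 370 and 8.16 CPM, so that both were lower there and not 2-fold apart in mural barcodes.

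**Figure D4:**
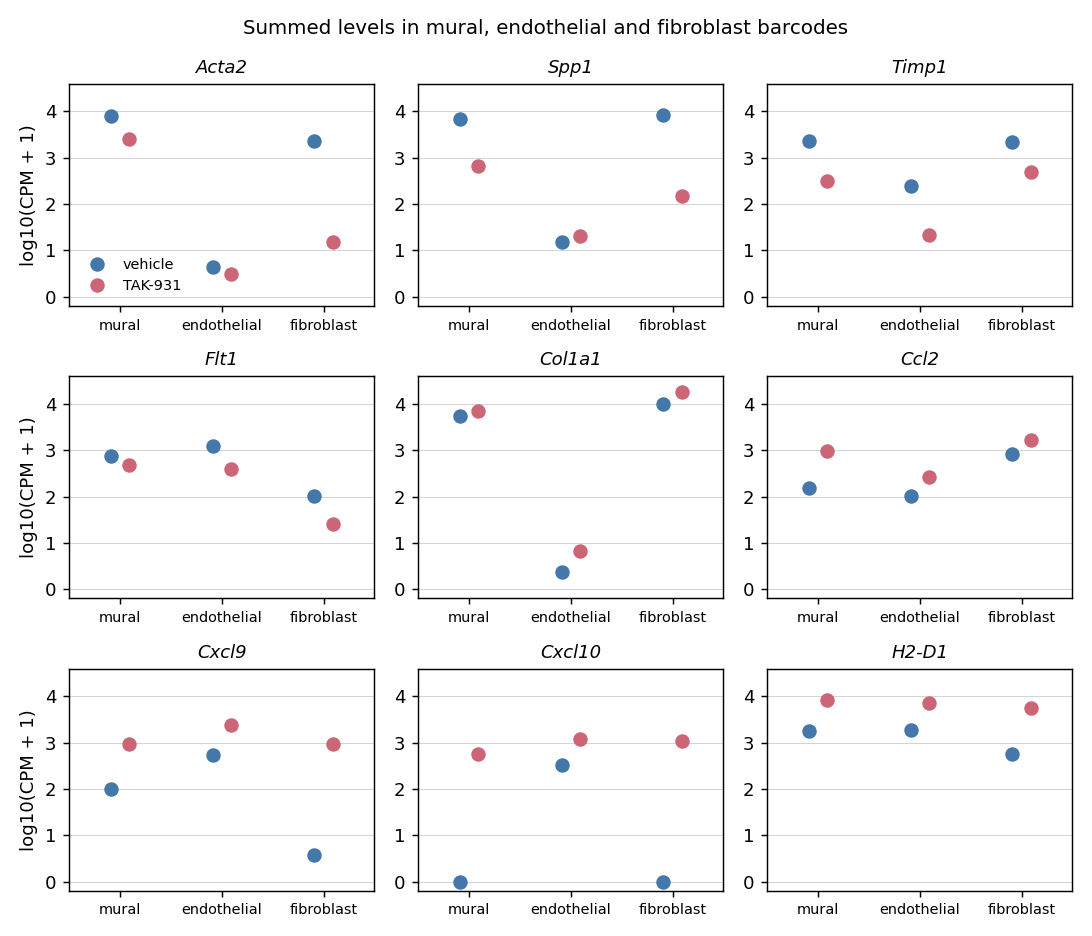
Summed levels, as log10(CPM + 1), of 9 genes in mural, endothelial and fibroblast barcodes of the vehicle (blue) and TAK-931 (red) libraries, 1 point per library and cell type. Cxcl10 and H2-D1 are higher with TAK-931 in all 3 cell types, Timp1 is lower in all 3, and Acta2 and Spp1 are lower in mural and fibroblast barcodes.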

How the data were processed

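Raw UMI counts per gene and barcode were deposited by the authors as filtered matrices, made with Cell Ranger 6.0.0 from 3′ v3.1 libraries, with no normalization. The submitters' processing notes name mm10, whereas the methods name hg38; the 32285 features carry mouse identifiers. The methods' limits (over 2000 genes, under 15% mitochondrial UMIs) were applied, and features sharing a symbol were summed. The libraries held 4565 and 6558 barcodes, with 144767193 and 77369283 UMIs.

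UMIs of the chosen barcodes were summed per library and divided by their total (CPM). Ratios of TAK-931 to vehicle carry exact conditional binomial 95% intervals, levels exact Poisson ones and shares exact Clopper-Pearson ones (differences: Newcombe), all for counting error only. With 1 library per group no p-value was computed. Genes needed 20 UMIs over both sums, and a gene at 0 was set to 3 counts in medians. Endothelial barcodes had 2 or more Cdh5 and 3 or more Pecam1, Kdr, Flt1 and Cldn5 UMIs, and fibroblast barcodes 5 or more Dcn and 2 or more Pdgfra, Lum and Dpt UMIs. Named genes were the pericyte and smooth muscle lists, the 4 genes with most UMIs of each other list, the 10 highest and 10 lowest ratios among genes with 50 UMIs, 5 barcodes, none over 25% and a CPM no lower than in other kept barcodes, all judged in whichever library had more of them, and the 20 highest folds over other barcodes; further list members are given for context, and some named genes are not reported here. The members and lists were chosen with earlier results of these data known. The scripts were tested on simulated data. Python 3.11.15, numpy 2.4.6, scipy 1.17.1, pandas 2.3.3 and matplotlib 3.10.9 were used.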

Additional observations from a re-analysis of the deposited data

Results flagged for a closer look

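Barcodes outside the gene and mitochondrial limits, which were not part of the mural sums reported above and entered only where a limit was relaxed, held further barcodes that met the mural conditions. In the TAK-931 library they were 21 of 3070 such barcodes, 0.684% (exact 95% interval 0.424 to 1.04), and in the vehicle library 4 of 1124, 0.356% (0.097 to 0.909). The median mitochondrial share of these barcodes was 21.6% and 14.3%, and their median number of genes 1550 and 1042.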

How the results depend on the processing

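No paired analysis was possible because each group is 1 library. The medians of the pericyte, chemokine, interferon and MHC class I lists kept their sign under all alternatives run, and those of smooth muscle and NF-kB under all but the stricter endothelial limit. Under that limit the chemokine, interferon-stimulated and MHC class I medians fell below their intervals, to 0.37, 0.49 and 1.41. Without the deepest barcode of each library, an alternative chosen after seeing the data, the fibrillar collagen median was -0.58 and the hypoxia median -0.84. With the mean of each barcode's CPM they were -0.46 and -0.57. The number of genes at least 2-fold higher and lower was 364 and 140 at a minimum of 50 UMIs and 1826 and 2721 with no minimum.

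Under the stricter endothelial limit, with 3 and 4 barcodes left, medians were 0.98 for pericyte, 2.67 for interferon-gamma-inducible genes, 0.28 for smooth muscle and -2.13 for NF-kB, -0.89 for basement membrane, -1.04 for fibrillar collagen, 1.13 for vessel signalling, 0.37 for chemokines, 0.49 for the interferon-stimulated list, 1.41 for that of MHC class I, -0.91 for p53 and -1.05 for hypoxia, and 112 genes were 2-fold higher and 136 lower. Log2 ratios reversed there to 0.27 for Acta2, -3.76 for Ccl2, -1.52 for Cdkn1a, -3.45 for Cxcl1, -0.04 for Ifi47, -3.68 for Lyz2, 1.57 for Spp1 and -0.33 for Zbp1. The cause was not tested.

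The mural share of kept barcodes differed by 0.202 to 0.56 points over its alternatives, the share of barcodes without the tumour mark by -5.14 to -2.76 and the share of mural and endothelial barcodes by -9.52 to -3.31. Cell cycle genes and regulators had few UMIs, and 1 library per group leaves treatment and library inseparable.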

Other observations

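Some genes taken as markers of other lineages were spread over the mural barcodes, and those given here were picked out after their values were seen. Other members of the same lists were also found there, such as Esam in 20 of 23 and 32 of 32 and Iglc1 in 23 of 23 and 29 of 32 barcodes. Flt1, the decoy receptor for VEGF and an endothelial marker, had 379 and 371 UMIs in 23 of 23 and 30 of 32 mural barcodes, 753 and 481 CPM, while Kdr had 0 and 2 UMIs and Cldn5 0 and 0 UMIs. In endothelial barcodes Flt1 had 1202 and 389 CPM, so its level with TAK-931 was higher in mural than in endothelial barcodes. Sdc1, the plasma cell marker CD138, had 717 and 535 CPM in mural barcodes and 6.21 and 5.78 CPM in endothelial ones, while Mzb1 and Pou2af1 of the same list had 7 and 1 UMIs and 9 and 1 UMIs. Serpinf1, taken as a fibroblast marker, had 978 and 518 CPM beside 0 UMIs of Lum and Pdgfra.

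Trac, the constant region of the T cell receptor alpha chain, was detected in 19 of 23 and 14 of 32 mural barcodes, with 100 and 37 UMIs (log2 ratio -2.05, 95% interval -2.63 to -1.49). Cd3d, Cd3e and Cd3g, on which the barcodes were selected, had 0 vehicle UMIs, and Trbc1 and Lck, on which they were not, had 0 in both libraries. Endothelial barcodes had 0 and 1.36 CPM of Trac, fibroblast barcodes 5.44 and 2.05 CPM and all other kept barcodes 1.32 and 124 CPM. Thinned to 5000 UMIs, Trac was seen in 52.2% (30.6 to 73.2) of vehicle and 21.9% (9.28 to 40) of TAK-931 mural barcodes, and in 0.237% and 6.9% of tumour barcodes. Antisense or overlapping transcription at this locus was not tested.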
